A study of Caenorhabditis elegans with 2 samples.

Results

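Aminoacyl-tRNA synthetase genes were examined for binding of the chromatin protein MEP-1 in embryos of Caenorhabditis elegans. The members are the protein-coding genes whose symbol is one amino-acid letter followed by ars and a number, and the Ensembl annotation held 32 of them among 19973 nuclear protein-coding genes. By the symbols, 20 carry the number 1 (read as cytoplasmic), 11 carry the number 2 (read as mitochondrial) and fars-3 alone carries the number 3. Chromatin was immunoprecipitated with eGFP-tagged MEP-1 and the recovered DNA was sequenced (ChIP-seq). The strain, OP70, has the genotype unc-119(ed3) III; wgIs70, in which the wgIs70 transgene supplies eGFP-tagged mep-1 in an unc-119 mutant background. Whole embryos of mixed stages and pooled sexes gave 2 biological replicates of 1 group, with no second condition, so every value below is a description and no test compares conditions.

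Each synthetase joins one amino acid to the transfer RNAs (tRNAs) that read its codons, and elongation factors then carry the charged tRNAs to the ribosome. Animal cells need one set of these enzymes in the cytoplasm and one in mitochondria, and a few genes, such as those for the glycine and lysine enzymes, are known in animals to make both forms. The enzymes fall into class I and class II, which have unrelated catalytic folds. The zinc-finger protein MEP-1 acts with the nucleosome remodeller LET-418 (Mi-2) and is known for repressing germline genes in somatic cells.

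On the ce11 build, the deposited candidate lists number 25216 regions in replicate 1, 30000 in replicate 2 and 30000 in the pool of both, and there is a thresholded set of 2404 peaks from the irreproducible discovery rate procedure (the IDR set). Those 2404 peaks were the 2404 strongest pooled regions, with signal values from 34.2 to 357.3, and the weakest pooled candidate had a signal of 6.5. Signal is the authors' strength of a region and has no fixed unit, so it was compared within a list and given as a rank between lists. The promoter of a gene was taken to begin 1000 bp before its annotated 5′ end and to stop 200 bp after it, and a gene was counted when that window held a summit. Read depth is unknown, and the lists hold no expression values, so the stage label was not checked against marker genes.

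An IDR peak lay in the promoter of 7 of the 32 synthetase genes, namely ears-2, fars-1, kars-1, nars-1, vars-1, pars-2 and mars-1. That is 21.9% (95% exact Clopper-Pearson interval 9.28 to 40%, covering counting error over genes only), beside 11.4% of all protein-coding genes (2275 of 19973). The interval holds the share of all genes. Among the genes numbered 1 the count was 5 of 20 (25%), and among those numbered 2 it was 2 of 11 (18.2%), with intervals of 8.66 to 49.1% and 2.28 to 51.8% that overlap over most of their length. The single gene numbered 3 had none. The embryos were sampled whole, so strong binding in few cells and weak binding in many cannot be told apart.

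The 7 peaks were of ordinary strength. Their median pooled signal was 56.0, beside 57.7 over the 2275 genes with a promoter peak (interquartile range 43.7 to 81.2). The peak of ears-2 stood above that range with 136.9, and 5.32% of genes with a promoter peak, ears-2 included, had one at least as strong. The peak of fars-1 (81.3) lay at its upper edge, and kars-1 (61.0), nars-1 (56.0), vars-1 (54.6) and pars-2 (44.3) lay within it. That of mars-1 (38.8) lay below it, near the weakest IDR signal of 34.2.

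**Figure D1:**
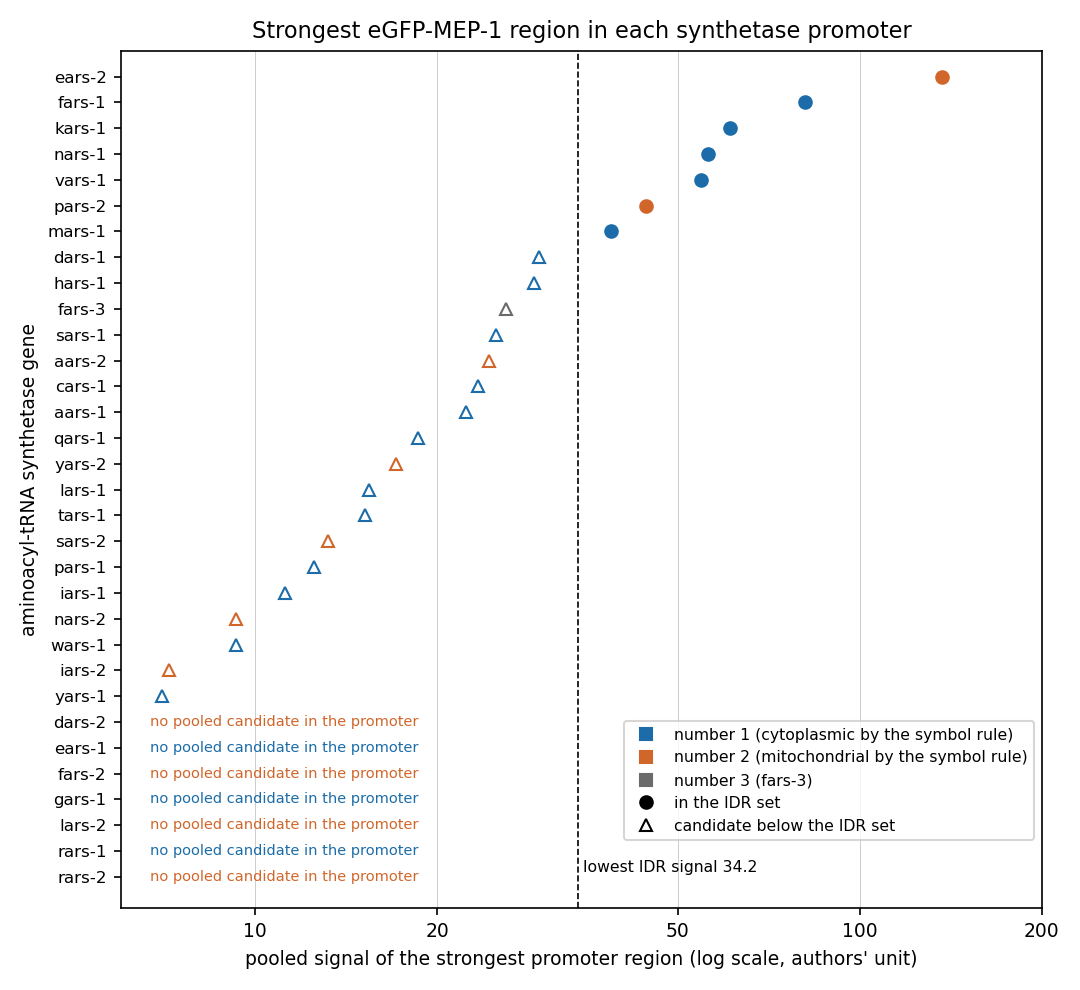
Pooled signal of the strongest promoter region of each of the 32 synthetase genes, on a log axis. Filled circles are IDR peaks, open triangles are candidates below the IDR set, and the dashed line is the lowest IDR signal (34.2). From ears-2 at 136.9 down to yars-1 at 7.0, 25 genes have a region, and 7 genes have no pooled candidate.

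The sequences at the promoter peaks of ears-2, kars-1, mars-1 and vars-1 are printed because they show the stretch of DNA that carries each summit. They come from the RefSeq genome of the same assembly (WBcel235, ce11), 5′ to 3′ on the strand of the synthetase gene, with 75 bases on each side of the summit or, for ears-2, as much of the peak as lies outside annotated exons. For vars-1 the stretch also ends where the first exon begins. Capitals mark every GCGC, a word searched after the sequences had been seen.
ears-2: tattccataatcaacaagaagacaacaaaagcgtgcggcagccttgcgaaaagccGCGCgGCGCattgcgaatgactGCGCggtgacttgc
kars-1: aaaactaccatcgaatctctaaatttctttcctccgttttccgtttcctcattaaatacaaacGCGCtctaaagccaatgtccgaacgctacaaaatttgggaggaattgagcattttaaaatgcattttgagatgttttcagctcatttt
vars-1: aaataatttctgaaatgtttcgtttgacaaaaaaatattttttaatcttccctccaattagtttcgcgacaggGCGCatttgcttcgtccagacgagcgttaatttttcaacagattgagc
mars-1: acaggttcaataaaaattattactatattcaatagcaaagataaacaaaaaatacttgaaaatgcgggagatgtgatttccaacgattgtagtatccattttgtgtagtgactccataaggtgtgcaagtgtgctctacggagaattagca
The ears-2 sequence is the whole of the 91 bp between ears-2 and its neighbour (chrIV:390469-390559, minus strand). It holds GCGC 3 times, and 53.8% of its bases are G or C. The sequences of kars-1 (chrII:7072637-7072787, minus strand) and vars-1 (chrV:8031290-8031410, plus strand) each hold GCGC once, 9 bases from the summit at kars-1 and over the summit at vars-1. That of mars-1 (chrIV:11635726-11635876, minus strand) holds none.

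Around the summits of the 7 promoter peaks, the 151 bases held GCGC in 5 genes, the 2 without it being mars-1 and nars-1. Of 1607 distinct promoter IDR peaks, 69.7% held GCGC in the same window, beside 24.8% of 6556 promoter candidates outside the IDR set, so the count at the synthetase genes was like that of other IDR peaks. None of the 7 windows held TGATGNAA (the core of the amino acid response element, N being any base), the E2F-like word TTCCCGC, the repeat word GAGAGA or the word TGCGTCTC on either strand. Among the 1607 peaks these words were found in 2.55%, 4.98%, 30.2% and 10.9%. In the 300 bases from 250 upstream to 50 downstream of the 5′ end, TGATGNAA was found at 2 of the 32 genes, iars-1 and lars-1, beside 7.45% of all 19973 promoters. GAGAGA was found at 7 of the 32, beside 21.8% of all promoters. TTCCCGC was found at aars-2 alone (3.22% of all promoters) and TGCGTCTC at none (3.32%). GCGC was found in 10 of the 32 promoters, beside 28.7% of all. A match is a run of letters and says nothing of a factor. The GC content of the 7 windows ran from 30.5% at nars-1 to 51.0% at ears-2, and those of nars-1, mars-1 (33.8%), vars-1 (33.8%) and kars-1 (35.8%) lay below the interquartile range of 39.7 to 49.0% over the 1607 peaks. The window of ears-2 lay above that range, and those of fars-1 (43.7%) and pars-2 (45.7%) lay within it.

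The gene for the glutamate enzyme of mitochondria, ears-2 (WBGene00001338, chrIV:388686-390468, minus strand), had the strongest peak of the family. Its signal was 13.4 in the list of replicate 1, where it ranked 940, and 124.2 in that of replicate 2, where it ranked 52. The pooled peak ranked 84 of 30000 and spanned 193 bp (chrIV:390394-390586), narrower than the usual 336 bp. Its summit lay 34 bp upstream of ears-2 and 58 bp upstream of the divergent gene uncp-18, whose product is annotated as a syntaxin-binding protein. The list does not say which gene of such a pair a peak belongs to.

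Peaks at genes numbered 1 differed in where they lay. At kars-1 (lysine; WBGene00002238, chrII:7070183-7072415, minus strand) the summit lay 297 bp upstream of the gene and in no other promoter. At vars-1 (valine; WBGene00006935, chrV:8031411-8035025, plus strand) it lay 46 bp upstream, inside a gap of 196 bp behind oma-2, a gene for an oocyte maturation protein on the same strand. At mars-1 (methionine; WBGene00003415, chrIV:11631941-11635487, minus strand) it lay 314 bp upstream and was shared with F58B3.6, whose 5′ end was 847 bp away. At nars-1 (asparagine; WBGene00003815, chrI:7088030-7090062, minus strand) it lay 324 bp upstream and was shared with nduf-6, annotated as a subunit of NADH dehydrogenase, at 354 bp.

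For fars-1 (WBGene00001497, chrI:6211981-6214685, minus strand), which encodes the alpha subunit of the phenylalanine enzyme, the assignment is weaker. The summit lay 905 bp upstream of fars-1 but only 137 bp upstream of rbm-5, an RNA-binding protein gene on the other strand, and fell in the annotated 3′ UTR of T08B2.15. When each peak was counted for its nearest gene only, fars-1 dropped out and 6 of the 32 genes stayed, beside 8.1% of all genes. The mitochondrial proline gene pars-2 (WBGene00004190, chrI:12486944-12490890, plus strand) had its summit 5 bp upstream of the 5′ end, the closest of the family. All 7 summits were upstream, as were those of 2170 of the 2275 genes with a promoter peak. The median over the 7 was 297 bp upstream, beside 225 bp over all genes with a promoter peak. A peak shared with another promoter was found at 4 of the 7 (ears-2, fars-1, mars-1, nars-1), beside 56.9% of all such genes.

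**Figure D2:**
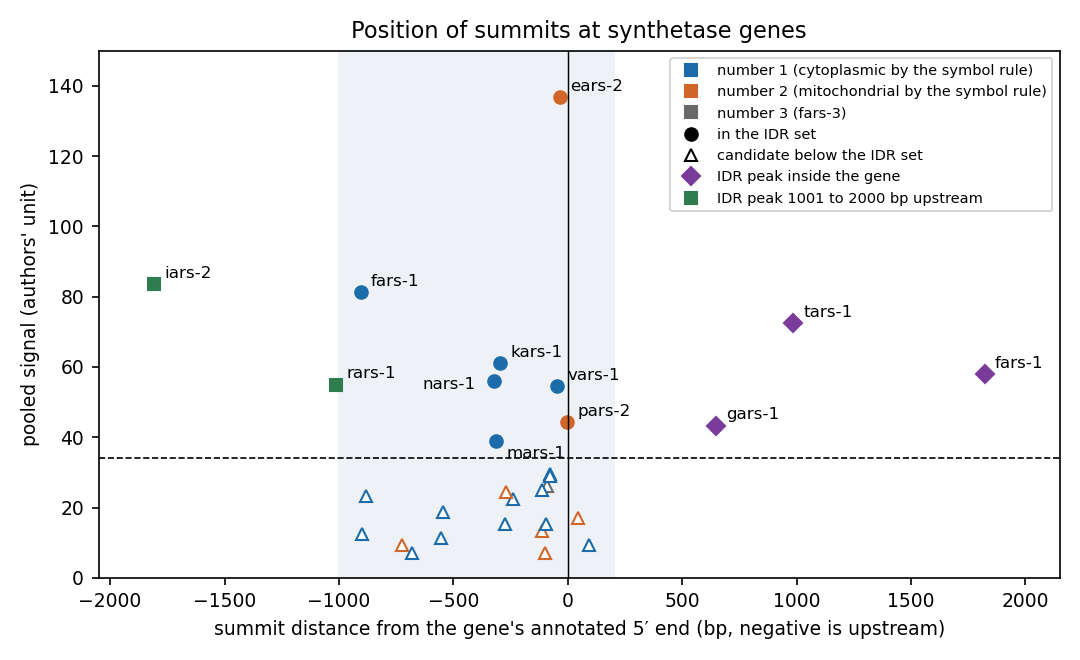
Summit position relative to each synthetase gene's annotated 5′ end (bp, negative is upstream) against pooled signal. Filled circles are promoter IDR peaks, open triangles are weaker candidates, diamonds are IDR peaks inside a gene, green squares are IDR peaks beyond the promoter, the shaded band is the promoter and the dashed line is the lowest IDR signal (34.2). The 7 promoter peaks lie from 905 to 5 bp upstream.

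The replicates differed at these genes. The file descriptions list a further input besides the replicate's own reads for the ce11 list of replicate 1 and for the pooled list, and none for that of replicate 2. Whether a control was used for replicate 2 is therefore not stated, and how this bears on the ranks and signals was not tested. A candidate with its summit within 100 bp was found in the list of replicate 2 for all 7 peaks, and in that of replicate 1 for 4 of 7 (57.1%), beside 98.5% and 87.5% of all genes with a promoter peak. The peaks of kars-1, mars-1 and pars-2 had no match in replicate 1. In replicate 2, kars-1 ranked 625 with a signal of 58.0, pars-2 ranked 1391 with 39.3 and mars-1 ranked 1569 with 36.9. Replicate 1 had other candidates in the promoters of kars-1 (464 bp upstream, rank 2809) and pars-2 (122 bp downstream, rank 9190), and none in that of mars-1. The peak of vars-1 ranked 6341 in replicate 1 (signal 5.0) and 998 in replicate 2 (46.9), and that of fars-1 ranked 1649 (9.8) and 347 (71.4). The peak of nars-1 went the other way, at rank 332 in replicate 1 (21.0) and 1807 in replicate 2 (33.6).

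Lists of equal length gave partly different genes. Among the 2404 strongest regions of replicate 1, promoter summits were found for 5 of the 32 genes (ears-2, fars-1, fars-3, nars-1 and qars-1), beside 9.43% of all genes. Among those of replicate 2 they were found for 8 of 32, the 7 above and rars-1, beside 11% of all genes. The 3 genes ears-2, fars-1 and nars-1 were in both. The gene for the beta subunit of the phenylalanine enzyme, fars-3, ranked 1042 in replicate 1 and 6094 in replicate 2. Its pooled signal of 26.0 lay below 34.2, the lowest in the IDR set. The glutamine gene qars-1 ranked 2247 and 10429, with a pooled signal of 18.6.

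**Figure D3:**
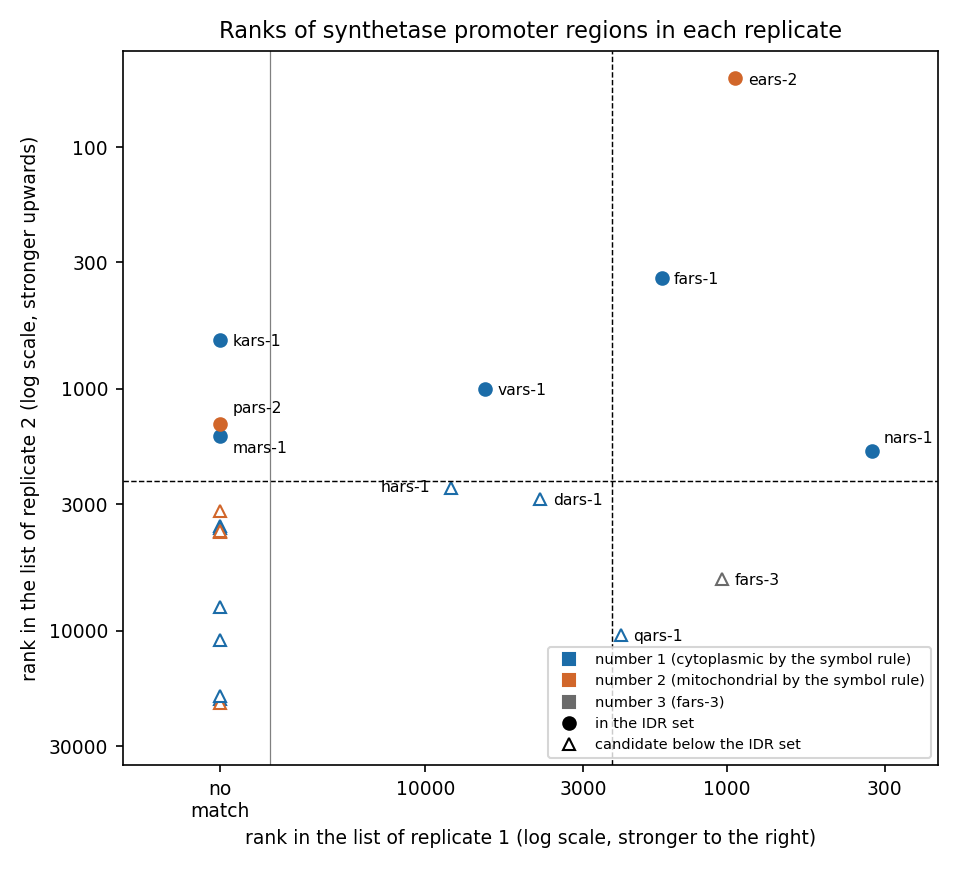
Rank of synthetase promoter regions in the candidate list of replicate 1 (horizontal) and of replicate 2 (vertical), on log axes with the strongest at the top right. Regions with no summit match in replicate 2 (aars-1, iars-2, lars-1 and yars-1) are not drawn, although that of iars-2 had one in replicate 1. Dashed lines mark rank 2404 and the left column holds regions with no summit within 100 bp in replicate 1. Only ears-2, fars-1 and nars-1 lie past both dashed lines, and kars-1, mars-1 and pars-2 have no match in replicate 1.

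When weaker candidates were counted too, the share of synthetase promoters with a region was above that of all promoters. Any pooled candidate was found at 25 of the 32 genes (78.1%, exact interval 60 to 90.7%), beside 39.2% of all genes. A pooled signal of at least 10 was found at 21 (65.6%, 46.8 to 81.4%), beside 28.6%. One of at least 20 was found at 14 (43.8%, 26.4 to 62.3%), beside 16.9%. A level of 50 lies above the lowest IDR signal of 34.2, so it counts IDR peaks only. A signal of at least 50 was found at 5 (15.6%, 5.28 to 32.8%), beside 7.11%, a share inside that interval. These levels were chosen after the values had been seen, and candidate lists hold background by the authors' description, so a candidate is not a binding site. No test of the family against other genes was made.

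**Figure D4:**
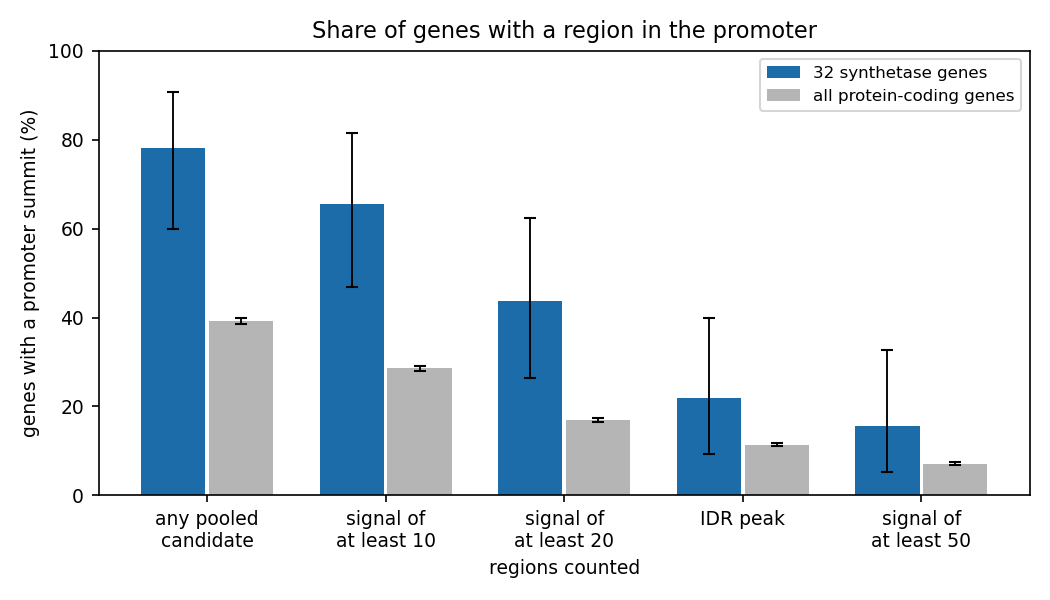
Share of the 32 synthetase genes (blue) and of all 19973 protein-coding genes (grey) with a summit in the promoter, for 5 ways of counting regions. Bars are percent of genes and error bars are 95% exact Clopper-Pearson intervals over genes. The shares run from 78.1% against 39.2% for any pooled candidate to 15.6% against 7.11% for a signal of at least 50.

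The members just outside the set were dars-1 (aspartate, 29.5), hars-1 (histidine, 28.9), fars-3 (26.0) and sars-1 (serine, 25.0). The summits of dars-1 and hars-1 lay 77 and 76 bp upstream, in promoters shared with ctr-9 and T11G6.2. In the replicates, dars-1 ranked 4165 and 2848 and hars-1 ranked 8214 and 2564, so neither was among the 2404 strongest regions of either. The alanine genes aars-2 (24.4) and aars-1 (22.3) and the cysteine gene cars-1 (23.4) followed. Some of these weak summits lay nearer to a divergent neighbour, at 158 bp from rga-1 and 239 bp from aars-1, at 308 bp from Y41E3.7 and 544 bp from qars-1, and at 256 bp from pges-2 and 555 bp from iars-1. That of sars-1 lay 112 bp from both sars-1 and C47E12.2. Those of sars-2 and tars-1 lay nearest to the member, but also in the promoters of W03B1.9 (545 bp) and xpf-1 (418 bp). Further down were qars-1 (18.6), yars-2 (tyrosine, 17.1), lars-1 (leucine, 15.4), tars-1 (threonine, 15.2), sars-2 (13.2), pars-1 (12.5) and iars-1 (isoleucine, 11.2). The pooled candidates of nars-2 (9.3), wars-1 (tryptophan, 9.3), iars-2 (7.2) and yars-1 (7.0) were near the floor of the list. Of these 18 candidates below the set, 14 had a summit match in replicate 2 and 5 (dars-1, hars-1, fars-3, qars-1 and iars-2) in replicate 1, while those of aars-1, lars-1 and yars-1 had a match in neither. Over all 5547 genes whose strongest pooled candidate lay below the set, 77% had a match in replicate 2, 29.4% in replicate 1 and 14.2% in neither, so the counts at the synthetase genes were like those of other genes. No pooled candidate had its summit in the promoters of dars-2, ears-1, fars-2, gars-1 (glycine), lars-2, rars-1 (arginine) and rars-2.

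Genes numbered 1 and 2 for the same amino acid could be set side by side for 11 letters. The gene numbered 1 had the stronger pooled region for aspartate, phenylalanine, isoleucine, leucine, asparagine and serine, and the gene numbered 2 for alanine, glutamate, proline and tyrosine. Neither arginine gene had one. For alanine, aspartate, isoleucine, leucine, serine and tyrosine, no region compared was in the IDR set. For glutamate, ears-2 stood at 136.9 and ears-1 had no candidate. For phenylalanine, fars-1 stood at 81.3, from the peak nearer to rbm-5, and fars-2 had none. For asparagine, nars-1 stood at 56.0 and nars-2 at 9.3.

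The numbers are not a safe guide to the compartment. RefSeq names the product of aars-1 mitochondrial and that of aars-2 cytoplasmic, the reverse of the rule, and exchanging them left the counts at 5 and 2, since neither had an IDR peak. The product of vars-1 carries no compartment, and glp-4, named for its germline phenotype, is also annotated as a valine ligase. The promoter of glp-4 held no IDR peak, and its strongest candidate had a signal of 25.4 and lay nearer to Y87G2A.16. By structural class, an IDR peak was found at 3 of 15 class I genes (20%) and 4 of 17 class II genes (23.5%), beside 11.4% of all genes, a share that lies inside both intervals (4.33 to 48.1% and 6.81 to 49.9%). A pooled signal of at least 20 was found at 4 of 15 and 10 of 17, beside 16.9% of all genes, with intervals of 7.79 to 55.1% and 32.9 to 81.6% that overlap. The signal levels were chosen after the values had been seen, and the gap was smaller at the others. At least 10 was found at 53.3% of class I and 76.5% of class II, beside 28.6% of all genes. At least 50 was found at 13.3% and 17.6%, beside 7.11%, and any pooled candidate at 73.3% and 82.4%, beside 39.2%. The difference between classes was not tested.

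The position of a synthetase gene among its neighbours was also recorded, with distance limits chosen after the data were seen. Of 13 synthetase genes with a divergent neighbour within 2000 bp, 4 had a promoter IDR peak, beside 26% of all genes so placed. Of 10 that lay within 500 bp behind a gene on the same strand, 1 (vars-1) had one, beside 7.56% of such genes. Of the other 9 genes, 2 had one, beside 6.23%. With a limit of 1000 bp, the second count was 2 of 12 beside 7.31% and the last 1 of 7 beside 6.09%. Many worm genes on one strand are transcribed together as operons from a promoter at the first gene, although these runs were set by distance alone.

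In 4 of those 10 runs (40%) the first gene had a promoter IDR peak, beside 24.7% of all 3534 genes in such runs. Before gars-1 the first gene was prp-19, a pre-mRNA splicing factor gene, with a signal of 100.5 at a distance of 8418 bp between the 5′ ends, and that summit also lay in the promoters of K10D2.5 and emb-1. Before dars-2 it was F10C2.4, annotated as the catalytic subunit of DNA polymerase delta (53.5), which shared its peak with kup-1. Before lars-2 it was ZK524.4, annotated as a protein kinase (47.4), whose peak lay in no other promoter. Before nars-2 it was Y66D12A.21 (40.8), which shared its peak with spe-6. The genes next to rars-1 and yars-1 also had promoter IDR peaks, at rpb-8 (an RNA polymerase subunit gene, 55.0) and Y105E8A.20 (65.6). Whether any of these promoters drives a synthetase gene was not tested.

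Some IDR peaks lay near a synthetase gene but outside its promoter. For rars-1 the summit of the rpb-8 peak stood 1014 bp upstream in the pooled list, just past the limit of 1000 bp, and 995 bp upstream in replicate 2, just inside it. For iars-2 a peak with a signal of 83.6 stood 1809 bp upstream. Inside gene bodies there were IDR peaks at tars-1, gars-1 and fars-1.

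The peaks inside tars-1 and gars-1 are printed because both genes have a later annotated transcript start and both summits lay in an intron before it. The tars-1 summit also lay in an intron of the overlapping gene kel-1. The sequences are 75 bases on each side of the summit, 5′ to 3′ on the gene's strand, from the same genome. Capitals mark GCGC and GAGAGA on either strand.
tars-1 intron: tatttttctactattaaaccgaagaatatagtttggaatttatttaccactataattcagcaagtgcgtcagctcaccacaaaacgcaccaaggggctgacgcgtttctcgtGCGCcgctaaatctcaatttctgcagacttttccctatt
gars-1 intron: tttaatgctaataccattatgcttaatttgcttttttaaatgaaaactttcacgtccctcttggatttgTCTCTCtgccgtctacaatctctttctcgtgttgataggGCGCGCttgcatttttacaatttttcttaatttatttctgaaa
The tars-1 peak (summit 983 bp inside the gene, chrII:11694599-11694749 printed, minus strand) had a pooled signal of 72.4, ranked 1356 in replicate 1 and 474 in replicate 2, and stood 381 bp upstream of the start of a shorter transcript. The gars-1 peak (646 bp inside, chrIII:5162906-5163056 printed, minus strand) had a signal of 43.3, ranked 6047 and 1545, and stood 704 bp upstream of the second start. When the 5′ end of every annotated transcript was used, 7 of the 20 genes numbered 1 had an IDR peak, with tars-1 and gars-1 added, beside 12% of all genes.

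The peak inside fars-1 (57.9) stood 1822 bp downstream of the 5′ end, over the exon of the noncoding gene T08B2.14 and of a pseudogene, and not upstream of a later fars-1 start. It also lay in the promoter of mrpl-23. It ranked 269 in replicate 1 and 1541 in replicate 2. No annotated tRNA, small nuclear, small nucleolar or micro RNA gene lay within 500 bp of any promoter summit described for the 25 synthetase genes with a region.

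Other genes of tRNA charging and use were counted from small lists chosen with earlier results of these data known, against the same 11.4% of all genes. Of 10 genes for users of charged tRNA, 9 had a promoter IDR peak, at 161.6 for eef-1G, 147.2 for eef-1A.1, 117.5 for eef-2, 100.1 for eef-1A.2, 61.5 for tufm-1 and 59.3 for eef-1B.2. These encode elongation factors, and the peak of eef-1A.1 lay nearer to rfc-4. Only ears-2 among the synthetase genes had a signal above that of eef-1A.2. Of 4 matched genes in the list of synthetases named otherwise and partners, 3 had a peak: gcn-1 (60.4), gcn-2 (36.1, nearer to Y81G3A.1) and atf-4 (36.0). They belong to the pathway that senses uncharged tRNA, and glp-4 was the fourth. Of 13 matched tRNA modification genes, 4 had one: mtcu-2 (58.1), elpc-4 (39.6, nearer to C26B2.7), pus-1 (38.1) and trm-1 (34.4). The lists were not tested against each other or against the synthetase genes.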

How the data were processed

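ChIP-seq region lists from 2 biological replicates of eGFP-MEP-1 embryos were used as deposited, on ce11 (WBcel235). Signal values (column 7) are the authors' strength of each region, and the deposited −log10 q-values share a ceiling of 3.695 over the whole IDR set, so regions were ranked by signal. Replicate lists are candidate lists with background for the IDR procedure, per the labels' file descriptions. Neither the aligner nor the caller nor the cutoff of the IDR step is given in these sources, and the lists on ce10 were not used here.

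Summits were joined to Ensembl release 115 genes, without 12 genes of the mitochondrial genome, with Python 3.11.15, NumPy 2.4.6 and SciPy 1.17.1, and figures were drawn with matplotlib. Each gene took its strongest region by summit, from 1000 bp upstream to 200 bp downstream. Regions were matched between lists by summits within 100 bp. Products come from RefSeq. The steps were tested on simulated summits planted at known places. Intervals are exact Clopper-Pearson intervals at 95%, and genes are not independent replicates.

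Named genes were every member, each gene sharing its peak, and up to 6 genes of each pathway list with the strongest promoter peak. The symbols eprs-1, trnt-1, aimp-1, aimp-2, trmt-1, adat-1 and tad-2 had no match. Members, lists and motifs were chosen with earlier results of these data known. The signal levels, neighbour distances, runs of genes, the word GCGC, the both-replicate match, peaks outside the promoter and RefSeq members were added after seeing the data.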

Additional observations from a re-analysis of the deposited data

How the results depend on the processing

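With 5 of 20 genes numbered 1 and 2 of 11 numbered 2 as the starting counts, leaving out each replicate gave 3 to 6 and 1 to 2, and a summit match in both replicates gave 3 and 1. Any pooled candidate gave 17 and 7. The stronger 1202 IDR peaks gave 1 for number 2 (4 for number 1), and counting the first gene of a run gave 5 for number 2 (6 for number 1). Both other promoter windows, nearest genes, any overlap and every transcript start kept both counts within 1.5 times (4 to 7 and 2 to 3). RefSeq compartments exchanged aars-1 and aars-2, neither with an IDR peak, so that setting could not move the counts. The product of vars-1 carries no compartment, and vars-1 stayed among the genes numbered 1. Members by RefSeq product gave 8 of 34. The share of all genes, 11.4%, became 9.34% with 500 bp upstream to 100 bp downstream, 14.7% with 2000 to 500 bp, 6.6% with the stronger peaks, 9.43 to 11% without a replicate, 8.1% for nearest genes, 12.1% for any overlap, 12% for every transcript start, 39.2% for pooled candidates and 15.4% through runs. The median signal of the number 1 peaks, 56.0, became 55.3 in the narrow window and for nearest genes, 55.5 in the wide window and for any overlap, and 58.5 for the stronger peaks. Leaving out a replicate meant counting the 2404 strongest candidate regions of the other, which are not an IDR set. Without replicate 2, kars-1, mars-1, pars-2 and vars-1 left the count over all 32 genes, while qars-1 and fars-3 entered it. Without replicate 1, rars-1 entered and none left, and the cause of these changes was not tested. No paired analysis was possible because there is 1 group. Without read depth, a missing candidate is not evidence of no binding.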

Other observations

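RefSeq products named 34 genes as tRNA ligases or synthetases, of which 8 had a promoter IDR peak, beside 11.4% of all protein-coding genes. The added peak belonged to Y105E8A.20, annotated as the mitochondrial methionine ligase, with a pooled signal of 65.6, rank 759, and a summit 45 bp upstream of its 5′ end. It lies next to yars-1 on the same strand, with 109 bp between the genes. The other genes found by product alone, K03B4.1, glp-4 and prx-10, had no promoter IDR peak. The members dars-2 and nars-2 have only a domain-type product and were not in that set. Genes were found this way after the values had been seen, and no explanation was weighed.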
